A study of Rattus norvegicus with 8 samples.

Results

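Small structural noncoding RNAs were described by class in the hippocampus of adrenalectomized rats infused with vehicle or corticosterone (CORT). The rows of the deposited transcript table were kept when their locus was at most 400 bp long and their symbol began as a small nucleolar RNA (SNORA, SNORD), a small Cajal body RNA (SCARNA), a U RNA, 7SK, 5S or 5.8S rRNA, RNase MRP or RNase P, a Y or vault RNA, or the RNA of the signal recognition particle (SRP). This rule kept 36 of 16266 rows, with loci of 119 to 331 bp. The 36 rows fell into 13 SNORA, 9 spliceosomal, 5 7SK, 3 SCARNA, and 1 row each of SNORD, U3, 5S rRNA, 5.8S rRNA, RNase MRP and SRP RNA. The Y and vault RNAs and the spliceosomal U5 and U6 were not analysed here.

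These RNAs work inside ribonucleoprotein particles and code for no protein. H/ACA box small nucleolar RNAs (SNORA) guide the conversion of uridine to pseudouridine in ribosomal RNA, C/D box small nucleolar RNAs (SNORD) guide ribose methylation, and small Cajal body RNAs guide both changes in the spliceosomal RNAs. RNA polymerase III makes 5S rRNA, 7SK, RNase MRP RNA, SRP RNA and U6atac, RNA polymerase II makes U1, U2, U3 and U4, and most other small nucleolar RNAs are cut out of the introns of host genes.

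The study infused 8 rats through the jugular vein for 30 min at zeitgeber time (ZT) 2, in the early light phase, and sequenced total RNA from whole hippocampi, taken 2 h after the treatment by the series title. Adrenalectomy removed the main source of endogenous corticosterone in both groups, and the comparison asked which transcripts differ after the CORT infusion. The vehicle group held 4 rats given 0.45% saline, and the CORT group held 4 rats given 0.75 mg/mL corticosterone complexed with 2-hydroxypropyl-beta-cyclodextrin. The labels give all 8 rats as Sprague-Dawley aged 3-4 months, whereas the methods name Lister hooded rats for all experiments, and the titles call the vehicle rats untreated. The vehicle label names saline without the cyclodextrin carrier, so carrier and hormone cannot be told apart from the labels.

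Levels are FPKM, the fragments assigned to a transcript per unit of its length and of sequencing depth, with a single group value per transcript. No value per rat was used, so no ratio below has a replicate check, an error or a test, and the number of fragments behind each value is unknown. Ratios are log2(CORT FPKM / vehicle FPKM) without a pseudocount, and a row at least 2-fold apart was counted as higher or lower as a description only. Every row of the table reached at least 0.7999 FPKM in at least 1 group. Of the 36 small RNA rows, 35 reached that level in both groups, and the SRP RNA reached it only in CORT, so that it could not have been listed without a difference. The authors removed transcripts by alignment count rather than by FPKM, so a short row may have needed a higher level to be listed. Whether other small RNA rows with low vehicle levels were listed only through CORT is therefore unknown.

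In the CORT group 19 of the 36 small RNA rows were at least 2-fold higher than in the vehicle group, 2 were at least 2-fold lower and 15 lay within 2-fold. Among all 16266 rows the same shares were 1.92% higher and 2.03% lower, against 52.8% and 5.56% of the small RNAs. At a 4-fold threshold 12 small RNA rows were higher and 0 lower, against 0.639% and 0.449% of all rows. At a 1.5-fold threshold 20 were higher and 6 lower, against 4.21% and 4.91% of all rows. The median log2 ratio was 1.02 over the small RNAs and 0.02 over all rows. The small RNAs were also more spread, with quartiles of -0.23 and 2.91, an interquartile range of 3.13 against 0.252 for all rows, and single values from -1.25 to 6.94.

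**Figure D1:**
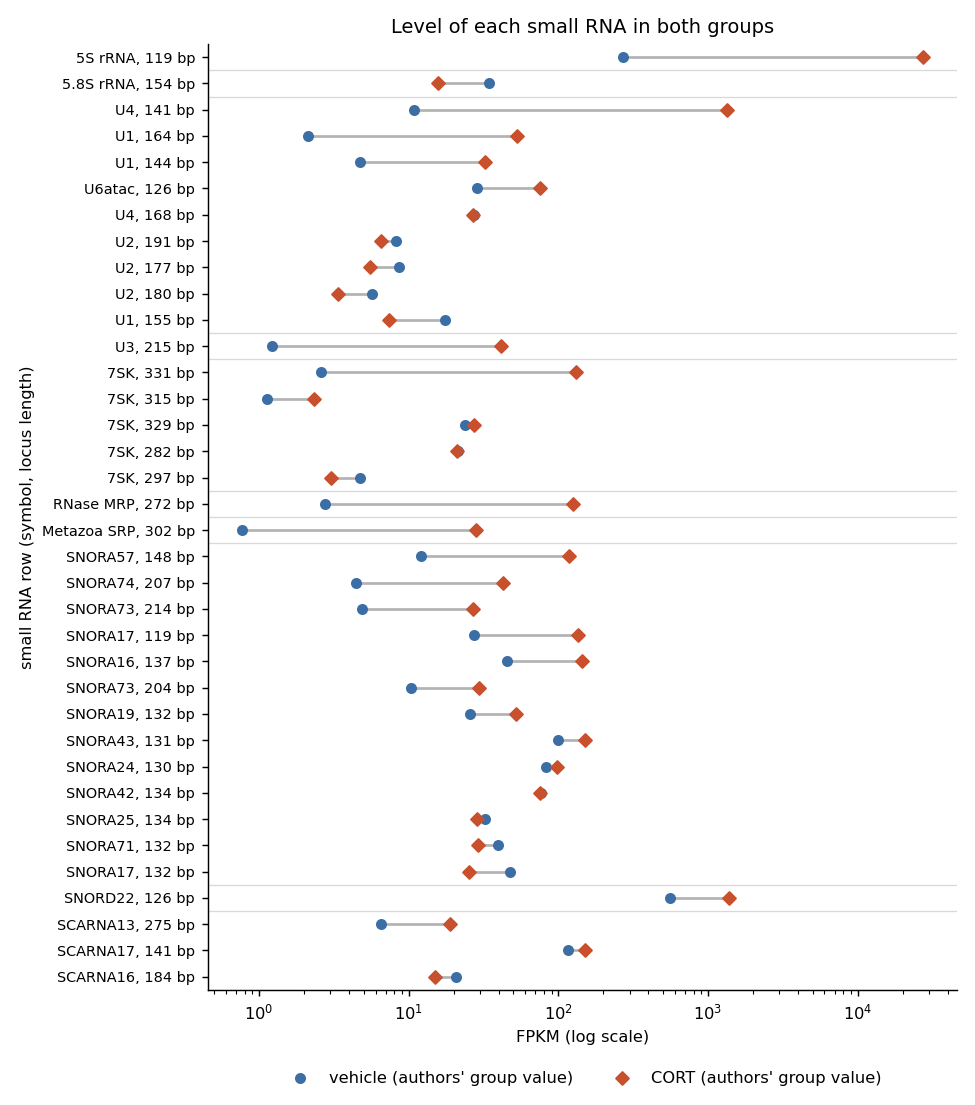
FPKM of each of the 36 small RNA rows on a log axis, with the vehicle value as a circle and the CORT value as a diamond joined by a line. Rows are grouped by class and named by symbol and locus length, and lines between the classes separate them. The widest gaps belong to 5S rRNA, the 141-bp U4, U3, the 331-bp 7SK, RNase MRP and the SRP RNA, whereas the 3 U2 rows and most of the 7SK rows have gaps of less than 2-fold or close to it.

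5S rRNA, the small RNA of the large ribosomal subunit that is not part of the large rRNA precursor, was the most abundant small RNA row in CORT (chr19:56338735-56338854, rn6, transcript ENSRNOT00000072497.2). Its group value was 269 FPKM in vehicle and 27466 FPKM in CORT, a 102-fold higher level (log2 6.67). The 5S genes are near-identical copies in tandem, so the assignment of fragments to this row is uncertain, and the other 2 rows of the same symbol, whose loci exceed 400 bp, had 138.49 and 138.52 FPKM (log2 0.00) on chromosome 9 and 327 and 401 FPKM (log2 0.29) on chromosome 8. The difference therefore stood in 1 of the 3 rows that carry the 5S symbol.

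5.8S rRNA, which is cut from the large precursor made by RNA polymerase I and pairs with 28S rRNA, differed in the other direction. The row on chromosome 2 (550643-550797) had 34.5 FPKM in vehicle and 15.8 FPKM in CORT, a 2.18-fold lower level (log2 -1.13). It was 1 of the 2 small RNA rows at least 2-fold lower, and the rRNA rows thus lay on both sides of the vehicle level.

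Single rows of U3, RNase MRP RNA and the SRP RNA were higher in CORT. U3, the C/D box RNA that base-pairs with the rRNA precursor for the early cleavages toward 18S rRNA, had 1.22 FPKM in vehicle and 41.1 FPKM in CORT (chr20:45357178-45357393, log2 5.08, 33.8-fold). RNase MRP RNA, the catalytic RNA of an enzyme that cleaves the rRNA precursor, had 2.76 and 125 FPKM (chr5:58994681-58994953, log2 5.50, 45.1-fold). The SRP RNA, the scaffold of the particle that brings ribosomes making secreted proteins to the endoplasmic reticulum, had 0.767 and 28.0 FPKM (chr10:59151683-59151985, log2 5.19, 36.5-fold). All 3 had low vehicle levels. The SRP ratio depends most on how low values are treated, and with 1 FPKM added to both groups it was 16.4-fold (log2 4.04).

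The 9 spliceosomal rows were split, with 4 at least 2-fold higher, 1 lower and a median log2 ratio of -0.03. Among all rows 1.92% were higher and 2.03% lower. U4, which keeps the U6 RNA paired and inactive until the spliceosome is activated, had the highest ratio of all 36 rows. Its 141-bp row on chromosome 12 (46863203-46863344) had 10.8 FPKM in vehicle and 1329 FPKM in CORT, a 123-fold higher level (log2 6.94). The second U4 row, of 168 bp on chromosome 19 (11150955-11151123), had 27.2 and 26.7 FPKM (log2 -0.03). The 2 rows of the U4 symbol thus differed in their ratios.

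U1, which pairs with the 5′ splice site, showed the same split over 3 rows. The 164-bp row on chromosome 3 (7399481-7399645) had 2.14 FPKM in vehicle and 53.2 FPKM in CORT (log2 4.64, 24.9-fold). The 144-bp row on chromosome 18 (29382398-29382542) had 4.69 and 32.4 FPKM (log2 2.79, 6.90-fold). The 155-bp row on chromosome 11 (83854744-83854899) had 17.5 and 7.36 FPKM and was 2.38-fold lower (log2 -1.25), the lowest ratio of the 36. The U1 row with the highest vehicle level was thus the one that was lower in CORT.

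U2, which pairs with the branch point, was lower in CORT in all 3 rows but within 2-fold in each. The rows on chromosomes 2, 3 and 11 had 8.25, 8.56 and 5.65 FPKM in vehicle. In CORT they had 6.55, 5.54 and 3.39 FPKM, with log2 ratios of -0.33, -0.63 and -0.74. U6atac, the catalytic RNA of the minor spliceosome that removes a rare class of introns, had 28.5 FPKM in vehicle and 75.5 FPKM in CORT (chr3:6083909-6084035, log2 1.40, 2.65-fold). The spliceosomal rows thus lay on both sides of the vehicle level.

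7SK holds the elongation factor P-TEFb inactive, and its 5 rows had a median log2 ratio of 0.19. The 331-bp row on chromosome 8 (85480291-85480622) had 2.61 FPKM in vehicle and 130.2 FPKM in CORT (log2 5.64, 49.96-fold). The row on chromosome 14 had 1.13 and 2.32 FPKM (log2 1.04, 2.05-fold), and with 1 FPKM added to both groups its log2 ratio was 0.64. The 3 other rows lay within 2-fold. They had 23.7 and 27.1 FPKM on chromosome 1 (log2 0.19), 21.3 and 21.0 FPKM on chromosome 18 (log2 -0.02), and 4.74 and 3.03 FPKM on chromosome 7 (log2 -0.65). The wide gap of the 7SK class was carried by the chromosome 8 row, which held 2.61 of the 53.5 FPKM summed over the 7SK rows in vehicle and 130.2 of 184 FPKM in CORT.

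**Figure D2:**
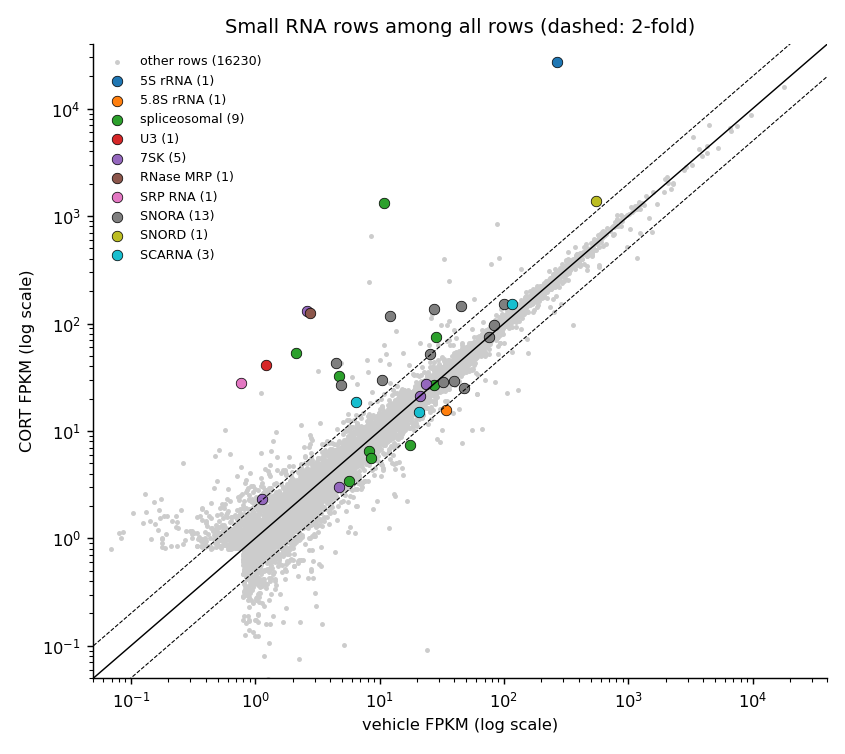
CORT FPKM against vehicle FPKM on log axes for all rows, with all other rows in grey, the small RNA rows coloured by class, the solid line at equal levels and the dashed lines at 2-fold. Most of the grey cloud lies between the dashed lines at the levels of the small RNAs, while 19 small RNA rows lie on or above the upper dashed line, and 5S rRNA is the row nearest the top. The few rows under 0.05 FPKM in 1 group lie outside the axes.

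Among the 13 H/ACA box rows 7 were at least 2-fold higher in CORT, 0 were lower, and the median log2 ratio was 1.01 (range -0.92 to 3.28). The shares for all rows were 1.92% higher and 2.03% lower. SNORA57 had 12.2 FPKM in vehicle and 119 FPKM in CORT (log2 3.28, 9.74-fold). SNORA74, also known as U19, had 4.47 and 42.9 FPKM (log2 3.26, 9.59-fold). SNORA73, also known as U17, takes part in cleaving the rRNA precursor rather than in guiding a modification. Its 2 rows lay next to each other on chromosome 5, and had 4.89 and 27.0 FPKM (150529714-150529928, log2 2.47, 5.53-fold) and 10.4 and 29.6 FPKM (150530144-150530348, log2 1.51, 2.84-fold).

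The other H/ACA box rows ranged from clear gaps to none. SNORA17 was listed at 2 loci, with 27.2 and 136 FPKM on chromosome 12 (log2 2.32, 5.002-fold) and 47.8 and 25.2 FPKM on chromosome 3 (log2 -0.92). SNORA16 had 45.1 and 144 FPKM (log2 1.67, 3.19-fold), and its locus is also that of the row snopsi28S-3327, with 6.54 and 27.6 FPKM (log2 2.08), so that fragments could be split between both. SNORA19 stood just past the threshold with 25.7 and 51.7 FPKM (log2 1.01). The other 5 rows were within 2-fold, as was SNORA17 on chromosome 3. SNORA43 had 100.1 and 151 FPKM (log2 0.59), SNORA24 had 83.0 and 97.2 FPKM (log2 0.23), and SNORA42 had 76.0 and 74.99 FPKM (log2 -0.02). SNORA25 had 32.6 and 28.5 FPKM (log2 -0.20) and SNORA71 had 39.4 and 29.2 FPKM (log2 -0.43). The 3 H/ACA rows with the highest vehicle levels, SNORA43, SNORA24 and SNORA42, were thus all within 2-fold.

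SNORD22, a C/D box RNA that lies in an intron of the noncoding host gene Snhg1 in human and mouse, had the highest vehicle level of the 36 rows. It had 553 FPKM in vehicle and 1386 FPKM in CORT (chr1:224923831-224923957, log2 1.32, 2.50-fold). Among the Cajal body RNAs, SCARNA13 had 6.49 and 18.8 FPKM (log2 1.53, 2.89-fold), SCARNA17 had 116 and 151 FPKM (log2 0.39), and SCARNA16 had 20.6 and 15.1 FPKM (log2 -0.45). Of the 17 SNORA, SNORD and SCARNA rows together 9 were at least 2-fold higher and 0 lower, and of the other 19 rows 10 were higher and 2 lower. The shares among all rows were 1.92% and 2.03%, and the 10 include the SRP RNA, whose direction was fixed by the filter.

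Grouped by the polymerase, which was done after the values were seen, 6 of the 9 rows made by RNA polymerase III (5S rRNA, 7SK, RNase MRP, SRP RNA and U6atac) were at least 2-fold higher and 0 lower, with a median log2 ratio of 1.40. Of the 9 U1, U2, U3 and U4 rows 4 were higher and 1 lower, with a median of -0.03. Both sets held rows with ratios above 30-fold, 4 in the first (5S rRNA, 7SK, RNase MRP and SRP RNA) and 2 in the second (U4 and U3). The SRP RNA counts among the 6 and the 4 although its direction was fixed by the filter. Shares at 2-fold among all rows were 1.92% higher and 2.03% lower.

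Summed over the 36 rows the level was 1680.1 FPKM in vehicle and 31926 FPKM in CORT, 19.0-fold higher, or 0.294% and 5.25% of the FPKM summed over all rows. FPKM is a level per length, so these are not shares of reads. 5S rRNA alone was 16.0% of the small RNA sum in vehicle and 86.0% in CORT. Without 5S rRNA the sum was 1411 FPKM and 4460.2 FPKM, 3.16-fold higher, and 0.247% and 0.733% of all rows. The order of the classes by summed level was SNORD22 (32.9%), SNORA (30.3%), 5S rRNA, SCARNA (8.49%), spliceosomal (6.75%) and 7SK (3.18%) in vehicle. In CORT 5S rRNA was followed by spliceosomal (4.82%), SNORD22 (4.34%), SNORA (2.99%), SCARNA (0.579%) and 7SK (0.575%). The single U4 row on chromosome 12 put the spliceosomal class second in CORT, since it held 1329 of that class's 1539.9 FPKM.

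The length of a locus and the size of the ratio were hardly ordered together over the 36 rows (Spearman's rho 0.08, as a description). Of the 24 rows of up to 200 bp 10 were at least 2-fold higher and 2 lower, with a median log2 ratio of 0.31. Of the 12 longer rows 9 were higher and 0 lower, with a median of 2.00. Those 9 include the SRP RNA, whose direction was fixed by the filter, and among all rows 1.92% were higher and 2.03% lower. Vehicle levels and CORT levels of the same rows were loosely ordered (rho 0.41). At the length limit, the 7SK row of 331 bp was the longest kept, and SCARNA2 at 416 bp was the nearest left out, with 1.11 FPKM in vehicle and 6.17 FPKM in CORT (log2 2.47).

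The locus in this table is the span of all overlapping transcripts, so a small RNA inside a host gene carries the host's span and exceeds 400 bp. Another 86 rows with the same kinds of symbol had loci over 400 bp, 85 of them with the same locus span as another gene. A shared span does not show that the small RNA lies inside that gene. Of the 86 rows 38 were at least 2-fold higher in CORT, 9 were lower and the median log2 ratio was 0.69. Examples were a U1 row on chromosome 10 with 8.55 and 652 FPKM (log2 6.25), RNase P RNA, which trims transfer RNA precursors, with 8.21 and 245 FPKM (log2 4.90) in 1 row and 1.64 and 1.54 FPKM (log2 -0.09) in another, and SNORA48 with 87.8 and 837 FPKM (log2 3.25). Lower values were found as well, such as SNORA32 at log2 -2.67 and another SNORA17 row at log2 -2.57. With both kinds of row counted together, 57 of 122 were higher (46.7%) and 11 lower (9.02%). The shares among all 16266 rows were 1.92% and 2.03%. These counts include both SRP rows (0.767 and 0.570 FPKM in vehicle) and a lower 7SK row (0.418 FPKM in CORT), whose direction was fixed by the filter.

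Rows that carry one symbol were compared with each other over both kinds of locus. SNORA73 was at least 2-fold higher in all 5 of its rows, and SNORA74 in both of its rows. The SRP RNA was also higher in both of its rows. However, these had 0.767 and 0.570 FPKM in vehicle, under the 0.7999 FPKM that every row reached in at least 1 group. The direction of both SRP rows was thus fixed by the filter, though not the size. RNase P RNA was higher in 1 of its 2 rows. U1 was higher in 5 of 8 rows and lower in 2. 7SK was higher in 2 of 13 rows and lower in 1, and U2 was higher in 1 of 6. The lower 7SK row had 1.17 FPKM in vehicle and 0.418 FPKM in CORT, and its direction was likewise fixed by the filter. U4 was higher in 1 of 4 rows and lower in 1, and SNORA17 was higher in 1 of 3 and lower in 1. Copies of U1, U4 and SNORA17 thus lay past the threshold in both directions, and because the copies are near-identical in sequence or belong to families with many pseudogenes, which copy a fragment came from is uncertain.

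**Figure D3:**
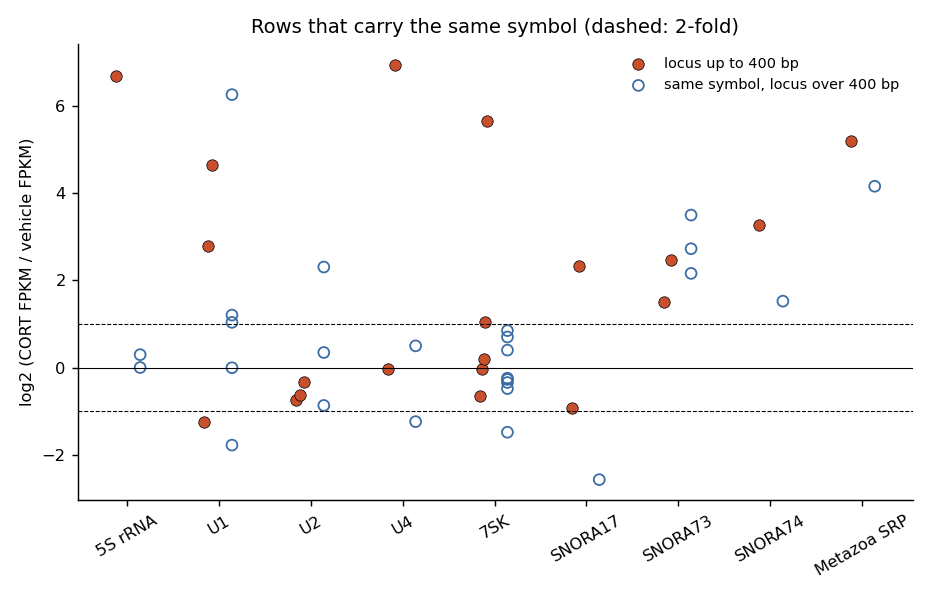
Log2 ratio of CORT to vehicle FPKM for every row of 9 symbols listed more than once, with filled circles for loci of up to 400 bp, open circles for loci over 400 bp and dashed lines at 2-fold. The 5 SNORA73 circles all lie above the upper dashed line, whereas the U1, U4 and SNORA17 circles lie both above and below the dashed lines and most of the 13 7SK circles lie between them.

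The size of these ratios was set beside other short rows and beside long rows in the same wide range of levels. Of 113 other rows with loci of up to 400 bp, 9 were at least 2-fold higher (7.96%) and 4 lower (3.54%), with a median log2 ratio of -0.01 and an interquartile range of 0.352. Only 24 of these 113 rows were as short as 200 bp, like 24 of the 36 small RNAs, and of those 24 other rows 4 were higher (16.7%) and 1 lower (4.17%), with an interquartile range of 0.623. The 3 microRNA precursors among them were all within 2-fold. The higher rows of these 24 included ACA64 (log2 2.54) and snopsi28S-3327 (log2 2.08), small RNAs whose names fall outside the symbols used. Of 13839 other rows over 400 bp with a mean FPKM in the range of the small RNAs, 0.571% were higher and 0.766% lower, and the interquartile range was 0.218. That range ran from 1.72 to 13867.5 FPKM and held most of the 16027 other rows over 400 bp, so levels were not closely matched. The small RNA rows were thus farther apart between the groups, and more often higher in CORT, than other short rows and than long rows in the same range of levels.

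**Figure D4:**
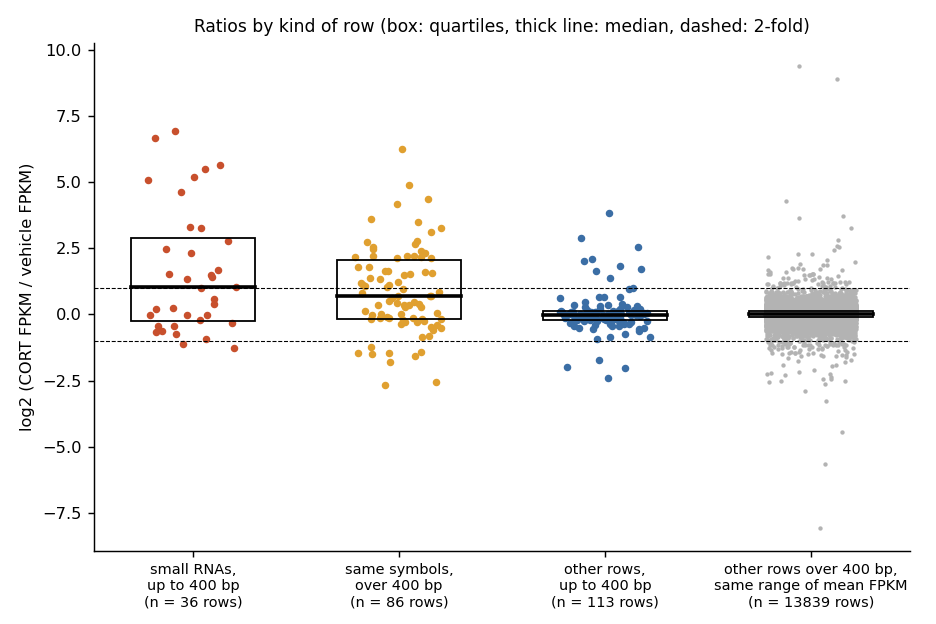
Log2 ratio of CORT to vehicle FPKM by kind of row, where each point is 1 row, boxes span the quartiles, thick lines mark medians and dashed lines mark 2-fold. The medians are 1.02 for the 36 small RNA rows, 0.69 for the 86 rows with the same symbols over 400 bp and -0.01 for the 113 other short rows, and the last 2 boxes are narrow around 0.

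Ordered by ratio, 15004 rows had at least 1 FPKM in both groups, 35 of the small RNA rows among them. The 10 highest ratios belonged to 6 small RNA rows and 4 rows with the same symbols over 400 bp. In the 20 highest only 1 row was of another kind, Pdk4, a kinase that restrains pyruvate use, with 1.39 FPKM in vehicle and 8.11 FPKM in CORT (log2 2.54). The 50 highest held 12 small RNA rows, and the 50 lowest held 0. With rows of at least 1 FPKM in only 1 group added, the 10 highest held 0 small RNA rows and the 20 highest held 4.

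The gene rows nearest to the small RNAs were level between the groups, as were most other rows. The nearest other row over 400 bp was taken for each small RNA, which was chosen after the values were seen and gave 35 different neighbours at a median distance of 3424 bp. The largest distance was 860136 bp. Of these neighbours 0 were at least 2-fold apart, and their log2 ratios ran from -0.32 to 0.27 with a median of 0.00. Among all other rows over 400 bp 1.53% were higher and 1.97% lower, so a count of 0 does not set the neighbours apart. Ccdc107, 295 bp from RNase MRP, had 36.9 FPKM in vehicle and 32.9 FPKM in CORT (log2 -0.17), and Lbhd1, 174 bp from SNORA57, had 23.6 and 21.6 FPKM (log2 -0.13). Gtf3c6, 820 bp from U3, had 17.6 and 16.6 FPKM (log2 -0.08), and Gas8, the neighbour of the 5S row, had 8.20 and 8.83 FPKM (log2 0.11). For the 86 small RNA rows over 400 bp, 74 different genes shared the locus span of 85 of them. Of these genes 0 were at least 2-fold higher and 1 was lower, counts that are also near the shares of other rows over 400 bp. Their median was 0.00, against 0.69 for the small RNAs that share their spans.

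**Figure D5:**
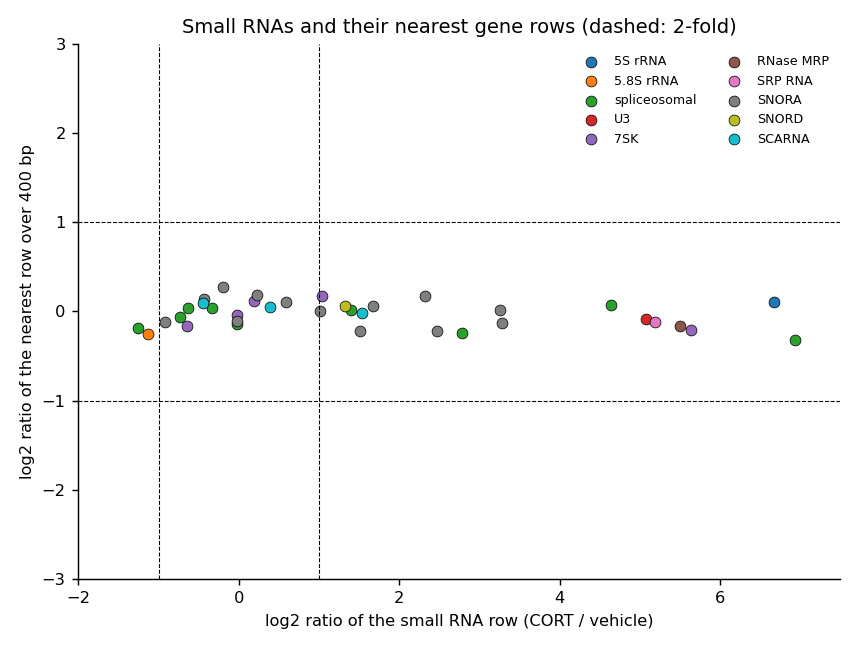
Log2 ratio of the nearest gene row over 400 bp against the log2 ratio of each of the 36 small RNA rows, coloured by class, with dashed lines at 2-fold. The small RNAs spread from -1.25 to 6.94 on the horizontal axis, and all neighbours stay between -0.32 and 0.27 on the vertical axis.

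The proteins that bind, modify or transcribe these RNAs were level too. Of 93 listed genes 84 had a row, and 0 of the 84 were at least 2-fold apart, with a median log2 ratio of 0.01. Among all 16266 rows 1.92% were higher and 2.03% lower, so a count of 0 does not set these genes apart from other rows. The largest ratios were those of Lsm10, a subunit of the particle that trims histone messages, with 4.68 and 6.70 FPKM (log2 0.52), Tep1, which binds vault and telomerase RNA, with 1.72 and 2.38 FPKM (log2 0.47), and Polr3g, a subunit of RNA polymerase III, with 1.64 and 2.26 FPKM (log2 0.46). The 26 genes of RNA polymerase III and its factors lay between -0.14 and 0.46. The 11 proteins of RNase P and MRP lay between -0.46 and 0.29, and the 6 SRP proteins between -0.18 and 0.13.

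Hippocampal neuron markers were present in both groups, with Camk2a at 593 and 667 FPKM, Neurod6 at 128 and 119 FPKM, Wfs1 at 106 and 114 FPKM, Prox1 at 10.9 and 8.96 FPKM (log2 -0.28) and Zbtb20 at 1.55 and 2.72 FPKM (log2 0.81), and 0 of 5 listed markers with a row were 2-fold apart. Markers of other cells or tissue were lower in CORT in most lists. Summed levels in vehicle and CORT were 1070 and 586 FPKM for 3 of 3 astrocyte markers, 4316 and 3547 FPKM for 3 of 3 oligodendrocyte markers, 109 and 81.1 FPKM for 4 of 4 microglial markers and 1419 and 812 FPKM for 4 of 4 blood markers. They were 11.9 and 3.72 FPKM for 3 of 4 thalamus and habenula markers, all 3 at least 2-fold lower, 33.4 and 28.5 FPKM for 3 of 4 meningeal markers, and 6711 and 6703 FPKM for 4 of 4 choroid plexus markers. Of 3 pineal markers only Tph1 had a row, with 5.17 and 0.102 FPKM. In CORT, Tph1, Gpr151 (0.573 FPKM) and Chrna3 (0.557 FPKM) were under the level that every row reached in at least 1 group. The direction of these markers was thus fixed by the filter, though not the size. Of the thalamus and habenula markers only Tcf7l2 was above that level in both groups, with 5.22 and 2.59 FPKM. None of the markers with a row was listed at 0, and their part in the small RNA ratios was not tested. In bulk tissue more cells of a type and more RNA per cell cannot be told apart.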

How the data were processed

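Total RNA of 8 whole hippocampi was sequenced paired-end from stranded libraries, and per the submitters' processing notes CASAVA 1.8.2, TopHat2 2.0.10 and Cuffdiff 2.2.0 were used with the rn6 genome. The authors deposited 1 FPKM value per transcript and group, after geometric normalisation, correction for reads with several matches, bias correction and effective length correction, and removed transcripts with few alignments. For RNAs about as short as the sequenced fragments the effective length depends on the modelled fragment size, and the effect on these values was not tested. The table also holds the authors' fold changes, test statistics, p-values and q-values, which were not used. The removal of rRNA and the read depth per rat are not given in the sources used here. No counts were at hand, so a limma test planned for values per rat could not be run.

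Ratios, counts past 2-fold and medians per class were computed with Python 3.11.15 (pandas 2.3.3, numpy 2.4.6, scipy 1.17.1), and the script was tested on simulated data. Coordinates are those of the deposited table. Named were all rows of classes of at most 6 rows, and in larger classes the 3 highest by mean FPKM and the 3 highest and 3 lowest by ratio. In addition 6 further rows (SNORA19, SNORA42, SNORA17 on chromosome 12, the second SNORA73 row, U4 on chromosome 19 and U2 on chromosome 2) were named to account for every row. For the partner proteins those past 2-fold and the 3 largest ratios were named. The small RNA rows and the lists were chosen with earlier results of these data known. Alternatives covered the pseudocount, a filter on low values, the fold threshold, the length limit, centring, 1 value per symbol, and the loss of the highest row. Of the 25 symbols, 7 were in the RefSeq gene table (GRCr8), and no sequence is shown.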

Additional observations from a re-analysis of the deposited data

How the results depend on the processing

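Each result is a group value with no test, so only the effect of the settings on sizes and counts can be given. Leaving out each rat in turn was not run, since 1 value per group was used, and nor was limma. No paired analysis was possible because the labels give no replicate numbers shared between the groups and the table holds 1 value per group. Centring on the median of all rows, a minimum of 1 FPKM in 1 or both groups and a pseudocount of 0.1 FPKM left the counts and class medians within 1.5 times or 1 spread of their values. With a pseudocount of 1 FPKM the median log2 ratio of the 36 rows was 0.81, and 15 rows moved by at least 0.1. At 1.5-fold 6 rows were lower, and at 4-fold 12 were higher and 0 lower. With loci of at most 200 bp 10 rows were higher, and the medians were 0.31 over all rows kept, 0.41 for SNORA and -0.033 for SCARNA, whose median thus changed sign. With no limit on locus length 57 rows were higher and 11 lower, and the medians were 0.70 over all, 0.76 for SNORA, 1.02 for SCARNA, 0.34 for the spliceosomal rows and -0.023 for 7SK, the last 2 with changed sign. With 1 value per symbol, from FPKM summed over its rows, 1 symbol was lower. The medians were then 1.40 over all and 1.67 for the spliceosomal symbols, the latter with changed sign. For 7SK this left a single log2 ratio of 1.78, carried by the chromosome 8 row. Without SNORA16 and the SNORA73 rows, whose loci coincide with or adjoin another small RNA row and which were left out after seeing the data, the medians were 0.59 over all and 0.41 for SNORA. Without its highest row, SCARNA was 1.73% of the summed level in vehicle and 0.106% in CORT, 7SK was 0.168% in CORT and the spliceosomal class 0.688% in CORT. The depth behind each value is unknown, so a ratio from a low vehicle level cannot be bounded.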

Other observations

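Several small RNAs fell outside the symbols used. ACA64, an H/ACA box RNA with a locus of 128 bp, had 10.9 FPKM in vehicle and 63.1 FPKM in CORT (log2 2.54). The small Cajal body RNA listed as snoU85, inside a longer locus, had 0.473 and 5.86 FPKM (log2 3.63). In vehicle it was under the 0.7999 FPKM that every row reached in at least 1 group, so its direction was fixed by the filter. The row snoU89 was level with 4.73 and 4.595 FPKM (log2 -0.04), and snoU109 was 5.40-fold lower in CORT with 55.4 and 10.3 FPKM (log2 -2.43). The rows left out by their names thus also lay on both sides of the vehicle level.

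Replication-dependent histone genes, whose messages end in a stem loop rather than a poly(A) tail, gave 5 of the other rows of up to 400 bp. Of these 3 were at least 2-fold higher in CORT and 0 lower. Each of the 3 was in vehicle under the 0.7999 FPKM that every row reached in at least 1 group, and was in the table only through CORT. Their direction was thus fixed by the filter, though not the 2-fold size. An example is the Hist1h4b row with 0.153 and 2.19 FPKM (log2 3.83).

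Among the 643 rows at least 2-fold apart, ratios equal to within a relative difference of 1e-05 were found for 2 pairs of rows, both of them small RNAs at different loci. SNORA77 (43.3 and 15.9 FPKM) and 1 SNORA79 row (13.6 and 5.0001 FPKM) were both 2.72-fold lower in CORT. SNORA55 (7.90 and 45.9 FPKM) and ACA64 were both 5.81-fold higher. How many fragments and how many rats lie behind these group values is unknown, and whether they are few was not tested.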
